A study of Mus musculus with 12 samples.

Results

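Epididymal white adipose tissue (eWAT) sampled 3 days after removal of 70% of the liver was compared with eWAT of sham-operated mice across all genes. The comparison holds 9 of the 12 libraries of the series: 5 mice at day 3 after partial hepatectomy (PHx) and 4 sham mice. The members were taken by their labels alone. The other 3 libraries, from day 7 after PHx, entered the fit and gave part of its estimate of spread. All mice were males aged 12 to 14 weeks per the labels, on a strain written C57bl6 in the sample labels and C57BL6/J in the series design. The labels give no transgene or drug for either group. PHx mice lost 70% of the liver, and sham mice had a laparotomy. The source field of the sham samples places them before hepatectomy, and the day of their sampling is not stated. Each library came from 1 animal per the labels. RNA was taken from whole frozen fat pads, so fewer cells of a type and less RNA per cell cannot be told apart in any value below. The molecule is given as polyA RNA in the labels and the design speaks of total RNA, and strandedness is not stated.

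eWAT is a visceral fat pad beside the testis, made of lipid-filled adipocytes with a stroma of progenitors, vessels, macrophages, mast cells and lymphocytes and a mesothelial cover. Fat cells release fatty acids by lipolysis, under adrenergic and hormonal control. Partial hepatectomy leaves lobes that regrow while the body draws on stored fuel. Glucocorticoids, the adrenal steroids of stress and fasting, act through a nuclear receptor that binds DNA as a dimer and induces genes such as Fkbp5, Klf9 and Pdk4.

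Levels below are library-scaled counts (CPM, made comparable between libraries by TMM, a trimmed mean of expression ratios). Per-library values run from library 1 upward. In the deposited table the per-sample values stood beside the wrong gene names, and they were set beside their own genes through summary values that the table also gives. Library totals were 13128832 to 18106714 counts at day 3 and 16368065 to 23474247 in sham. A gene passed when its edgeR quasi-likelihood p-value, adjusted over all genes tested by Benjamini and Hochberg, was under 0.05. Other genes are given by their values, with the unadjusted p as a description. Adipocyte identity was present in all 9 libraries: Adipoq, the adiponectin gene, stood at 1502, 996, 959.6, 909 and 4331 CPM at day 3 and at 1595, 2103, 3967 and 4227 CPM in sham. Of the skeletal muscle list 4 of 12 genes had enough counts to be measured, and of the epididymis list 1 of 15.

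Among the 9 libraries 4 stood apart. Day 3 library 5 resembled the sham libraries (mean correlation across genes of 0.926) more than its own group (0.894). Day 3 library 1 held 359 CPM of Xist, the RNA of the inactive X chromosome, and 0.643 CPM of the Y-linked gene Ddx3y, against the male label. Alb, the hepatocyte albumin gene, was at 2315 CPM in sham library 4, and the proliferation marker Mki67 at 191 CPM in sham library 1. For most lists described below, counts are given with all libraries and with some left out.

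Across 17012 genes tested 1 passed in edgeR, Pttg1, which is 0.00588% of the genes, and it fell at day 3. DESeq2 run on the same counts passed 122 genes (0.717%), 77 higher and 45 lower. A further description uses edgeR's unadjusted p. In that count 1003 genes stood higher (5.9%) and 846 lower (4.97%) at an unadjusted p under 0.05. The day 3 and sham libraries did not overlap for 632 genes (3.72%), 268 of them higher at day 3 (1.58%) and 364 lower (2.14%). To see which differences did not hang on 1 library, genes were counted that kept an unadjusted p under 0.05 in 11 fits: the full fit, the 9 fits that each left out 1 library, and the fit without sham library 4 and day 3 library 1. There were 283 such genes higher at day 3 (1.66%) and 191 lower (1.12%). They are called retained genes below, a description with no control for multiple testing.

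**Figure D1:**
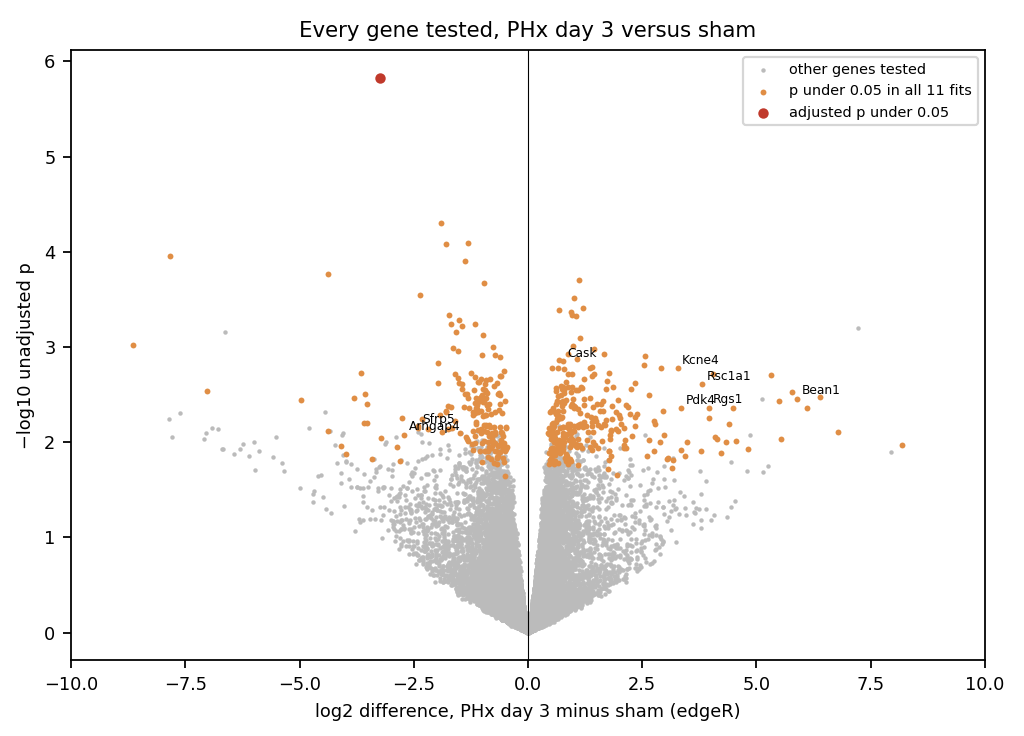
Each point is 1 of 17012 genes, with the log2 difference of PHx day 3 minus sham on the x axis and −log10 of the unadjusted edgeR p on the y axis. Pttg1 stands alone at the top at -3.24, and orange points are the 283 higher and 191 lower genes that kept an unadjusted p under 0.05 in all 11 fits.

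Pttg1 (ENSMUSG00000020415) encodes securin, which holds separase inactive until sister chromatids part, with its gene at 43311077 to 43317079 of chromosome 11, minus strand (mm39, positions as in the deposited table). Its level was 2.43, 3.30, 5.23, 3.17 and 3.05 CPM in the day 3 libraries and 32.4, 31.2, 28.5 and 37.5 CPM in the sham libraries. Every day 3 library, library 5 included, lay far under every sham library. The log2 difference was -3.24, with an SE of 0.388 and an edgeR adjusted p of 0.0253. The call held in edgeR with another library scaling (RLE), without the filter on low counts and with the 9 libraries alone. The edgeR adjusted p was 0.0283, 0.0229 and 0.000633 there. With voom and with the replicate number as a block the call was lost. It also did not hold in the edgeR fits that left out 1 library each or sham library 4 with day 3 library 1. In these fits with libraries left out its log2 difference was -3.44 to -3.06 and its unadjusted p at most 4.03e-05. In them 0 genes passed, and the smallest adjusted p of any gene was 0.0535 to 0.675. Levels at day 7 were 28.6, 29.9 and 6.56 CPM, so 1 of those 3 libraries was low and the others stood at the sham level. Pttg1 was the only cell cycle gene of the list described further on whose groups did not overlap. Its promoter, shown because it belongs to the 1 gene that passed, spans chr11:43425932-43426231 on the minus strand of GRCm38.p6, from RefSeq (250 bases before the gene start and 50 after). It holds no CCAAT on either strand, a letter group common in promoters of mitotic genes.
Pttg1: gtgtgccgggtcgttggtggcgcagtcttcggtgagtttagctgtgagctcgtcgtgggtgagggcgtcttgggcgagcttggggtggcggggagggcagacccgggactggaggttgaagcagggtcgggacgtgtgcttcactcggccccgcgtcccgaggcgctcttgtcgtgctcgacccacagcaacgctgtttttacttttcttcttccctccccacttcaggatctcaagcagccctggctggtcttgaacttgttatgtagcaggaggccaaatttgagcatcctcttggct

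Genes are named below by symbol, and predicted gene models (Gm numbers, Rik clones and genes with an identifier alone) were not eligible. The retained genes of smallest p named here that stood higher at day 3 had log2 differences of 0.76 to 2.56. Hipk3, a homeodomain-interacting protein kinase on chromosome 2, stood at 446, 419.7, 342, 293 and 333 CPM at day 3 against 132, 198, 195 and 229 CPM in sham. The lowest day 3 value, in library 4, was above the highest sham value, in library 4 (log2 difference 0.96, SE 0.207). Dctn3, a subunit of the dynactin complex that couples dynein to cargo, stood at 176, 213, 137, 135 and 109 CPM at day 3 and at 61.3, 81.0, 85.6 and 54.7 CPM in sham. The lowest of its group, day 3 library 5, was still above all sham libraries (log2 difference 1.13, SE 0.220). Reads of Dctn3 may include those of Il11ra1, which overlaps it on the other strand. Tob2, an antiproliferative protein of the BTG/Tob family, stood at 248, 187, 148, 145 and 109 CPM at day 3 and at 59.8, 64.1, 94.0 and 70.9 CPM in sham, without overlap (log2 difference 1.21, SE 0.256). Cry2, a repressor of the circadian clock, stood at 109, 124, 77.1, 117 and 72.7 CPM at day 3 and at 38.9, 42.9, 56.02 and 65.8 CPM in sham. The groups were separated by little: day 3 library 5 lay just above sham library 4 (log2 difference 0.98, SE 0.230). The endocytic adaptor Epn2 and Fam117b had log2 differences of 0.95 and 1.02. The membrane scaffold Cask had 0.76, and the transmembrane protein gene Tmem221 2.56. Also among the higher genes without overlap of smallest unadjusted p were Tle1, a Groucho corepressor (1.05), Prrg3 (1.14) and the orphan receptor Gpr157 (1.44). So were Usp6nl, a GTPase-activating protein for Rab5 (0.87), and the docking protein Gab2 (1.06). The edgeR adjusted p of each gene in this paragraph was 0.403.

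Among retained genes lower at day 3, Cgn had the smallest p after Pttg1. It encodes cingulin, a cytoplasmic protein of tight junctions, on chromosome 3. Its level was 4.22, 5.87, 5.08, 9.45 and 10.2 CPM at day 3 and 30.6, 22.01, 25.9 and 26.3 CPM in sham, with a log2 difference of -1.91 (SE 0.321, edgeR adjusted p = 0.35). The lowest sham library held clearly more than the highest day 3 library. Samd9l, an interferon-inducible antiviral gene, stood at 20.4, 28.9, 27.0, 26.6 and 31.8 CPM at day 3 and at 54.2, 54.8, 49.8 and 51.9 CPM in sham (log2 difference -0.97, SE 0.190). Ccl11, the eosinophil attractant eotaxin, stood at 32.7, 12.2, 19.96, 26.6 and 17.7 CPM at day 3 and at 61.5, 43.0, 48.8 and 41.9 CPM in sham (log2 difference -1.16, SE 0.256). In both genes the spread within each group was smaller than the gap between their means, and the groups did not overlap. B3gnt3, a glycosyltransferase, had a log2 difference of -2.36, and Pgpep1, which removes pyroglutamate from peptides, had -1.37. Hsph1, a large heat shock protein, had -1.51, the calcium sensor Syt7 -1.57, the cytokine Il16 -0.98 and AI661453 -1.69. With strandedness not stated, reads of Fam117b, Cry2, Cask, Il16, AI661453, Psmb7, Prc1 and Alas2 may likewise include those of genes that overlap them on the other strand. The same holds for Psma6, Ppp1r15a, Zfp36, Bmp4, Irf1, Nrg4, Cebpb and Apoh, named further on. Arhgap4 and Psma2 overlap genes on their own strand, so their reads may be shared whatever the strandedness. The edgeR adjusted p of the lower genes whose differences are given in this paragraph was 0.35 or 0.403.

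For 2 of the lower genes the genome holds near-identical copies, and their reads may be split unevenly. Ndufs5, a subunit of respiratory complex I, stood at 21.2, 23.9, 9.64, 9.68 and 14.7 CPM at day 3 and at 52.7, 38.9, 65.2 and 52.8 CPM in sham (log2 difference -1.73, SE 0.371). Its copy Ndufs5-ps went the other way, at 6.15, 9.11, 12.3, 9.68 and 20.5 CPM at day 3 and 1.52, 1.04, 3.17 and 3.82 CPM in sham. The sum of both was 27.4, 33.0, 21.97, 19.4 and 35.3 CPM at day 3 and 54.2, 39.9, 68.4 and 56.6 CPM in sham, so it too was lower in each day 3 library than in any sham library. Pisd-ps1, a copy of the phosphatidylserine decarboxylase gene Pisd, stood at 7.79, 4.89, 7.62, 8.21 and 8.48 CPM at day 3 and at 35.4, 21.5, 23.8 and 21.7 CPM in sham (log2 difference -1.79, SE 0.318). Pisd itself had a log2 difference of 0.18 and overlapping groups.

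**Figure D2:**
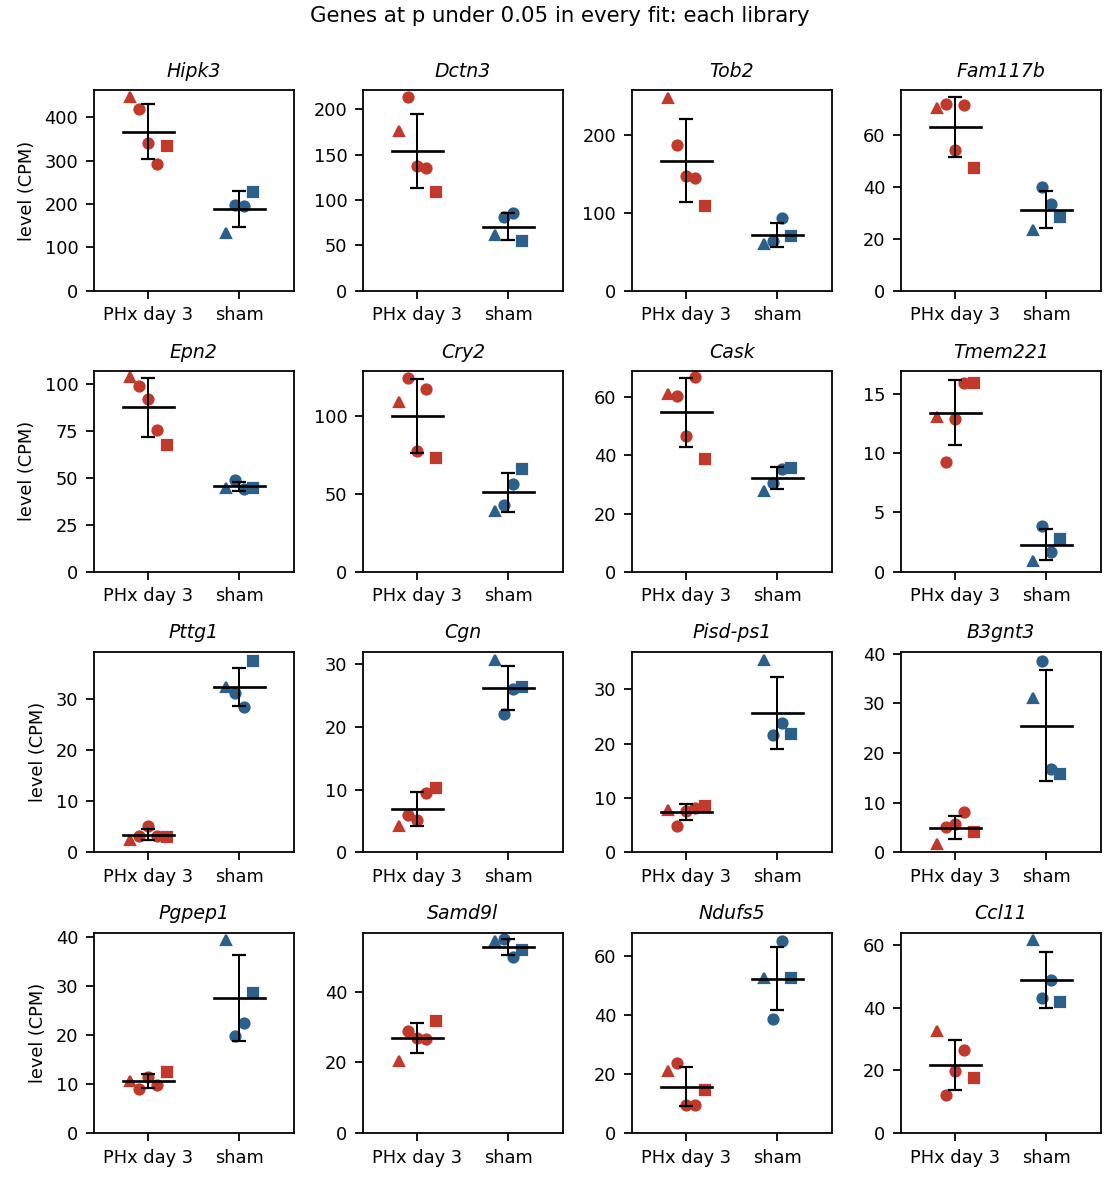
Levels in CPM of the 16 genes, predicted gene models not eligible, with the smallest largest p over the 11 fits, 8 higher (top) and 8 lower (bottom), 1 point per library with PHx day 3 at the left and sham at the right. Lines are means and bars SD (n = 5 and 4), triangles are day 3 library 1 and sham library 1, squares are day 3 library 5 and sham library 4, and in all 16 panels the groups do not overlap.

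Among genes without overlap and with a mean of at least 5 CPM, those with the largest differences included a regulator of fuel use and several signalling genes. Pdk4 encodes the kinase that shuts pyruvate dehydrogenase and so spares glucose. It stood at 2092, 2479, 1089, 888 and 230.1 CPM at day 3 and at 60.3, 203, 181 and 86.7 CPM in sham (log2 difference 3.35, SE 0.965). Day 3 library 5 was barely above the highest sham library, and the other 4 day 3 libraries were far above it. Kcne4, a regulatory subunit of potassium channels, stood at 22.01, 51.4, 21.5, 15.6 and 10.1 CPM at day 3 and at 2.05, 3.52, 1.92 and 2.43 CPM in sham (log2 difference 3.28, SE 0.820). Rgs1, a brake on G protein signalling in leukocytes, had a log2 difference of 3.96, and Bean1 had 5.90 with 3 of 4 sham libraries at 0. Rsc1a1 (3.81) lies within Ddi2, which had 0.62, so reads of the pair cannot be told apart. On the lower side, Sfrp5, a secreted Wnt inhibitor made by adipocytes, stood at 7.15, 3.24, 0.747, 1.06 and 14.2 CPM at day 3 and at 22.6, 53.9, 15.8 and 20.3 CPM in sham (log2 difference -2.42, SE 0.749). Arhgap4 had a log2 difference of -2.71. Larger lower differences without overlap were found in predicted gene models, among them Gm47283 on chromosome Y (-4.37) and Gm36161 (-3.56). The edgeR adjusted p was 0.403 for each of these except Ddi2 (0.443).

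Lists of genes by pathway or cell type were next counted against the shares over all genes, 5.9% higher and 4.97% lower at an unadjusted p under 0.05. The median log2 difference over all genes was -0.02, and 8224 of 17012 were positive. Without day 3 library 5 those shares over all genes were 8.48% and 10.1%, and without sham library 4 and day 3 library 1 they were 2.68% and 2.58%. A list's count describes its members and carries no test. Apart from Pttg1, 0 members of any list passed the adjusted threshold in edgeR.

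**Figure D3:**
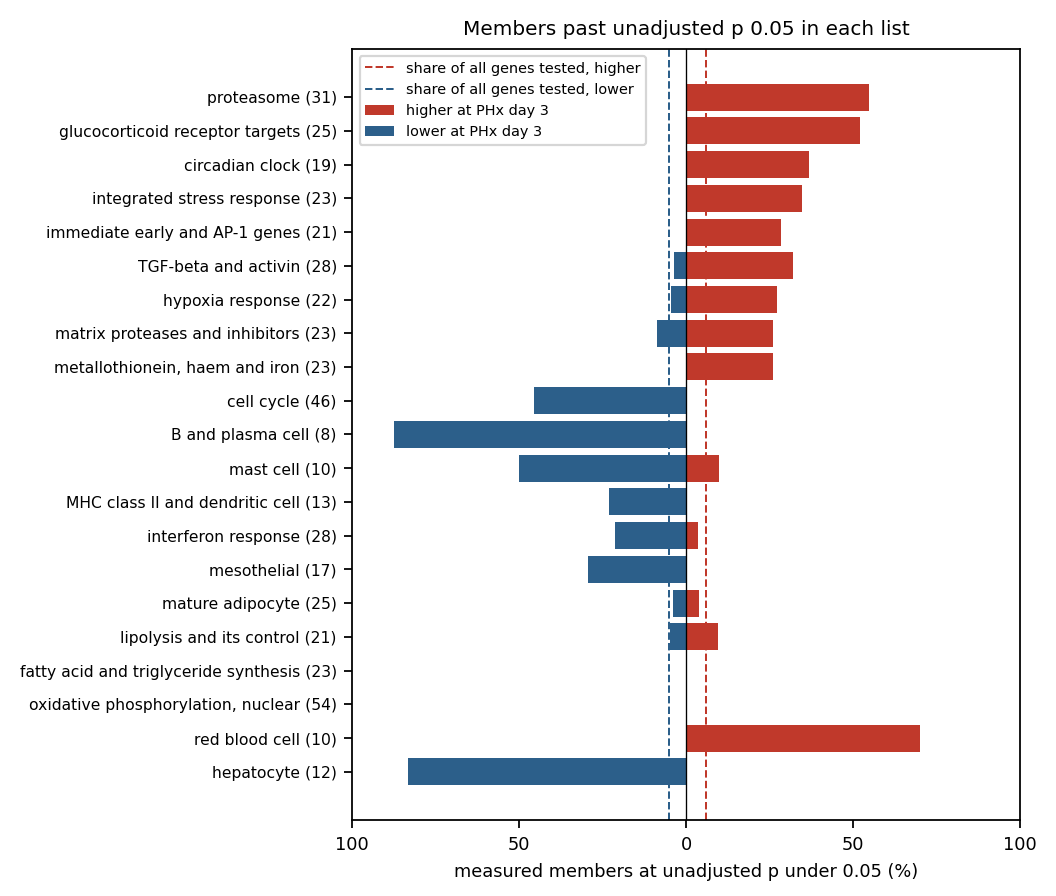
Share of the measured members (number in brackets) of 21 lists at an unadjusted p under 0.05, with red bars to the right for members higher at PHx day 3 and blue bars to the left for lower ones. Dashed lines mark the shares over all genes tested, 5.9% and 4.97%, and the proteasome list (17 of 31 higher) and the cell cycle list (21 of 46 lower, or 3 without sham library 1) reach far beyond them.

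The proteasome degrades ubiquitin-tagged proteins, and most genes of its core and cap stood slightly higher at day 3. Over all genes 5.9% were higher at an unadjusted p under 0.05, and 1.58% were higher without overlap. Of 31 measured proteasome genes 17 were higher and 0 lower at that threshold, 29 had positive differences and 9 had groups that did not overlap. The median log2 difference was only 0.38. Psmb3, a beta subunit of the core, stood at 87.6, 86.7, 85.4, 77.4 and 72.2 CPM at day 3 and at 57.5, 59.6, 58.1 and 51.3 CPM in sham (log2 difference 0.53, SE 0.134). Psma6, an alpha subunit, stood at 189, 178, 190.0, 181 and 127 CPM at day 3 and at 120.0, 117, 113 and 103 CPM in sham (log2 difference 0.61, SE 0.165). In both genes library 5 was the lowest day 3 library and lay above the sham range. The core subunits Psmb7 and Psma2 had 0.48 and 0.60. Psmc5, an ATPase of the cap, and Psma4 went the other way (-0.16 and -0.08). Without day 3 library 5 the count was 20 of 31, and without sham library 3 it was 11. Without sham library 4 and day 3 library 1 it was 8, as with all 4 libraries that stood apart left out. Of the 31 subunits 7 were retained genes. The lysosome list, the other main route of breakdown, had 0 of 30 members higher and 1 lower, and the autophagy list 3 of 26 higher.

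Targets of the glucocorticoid receptor, most of them induced by it, had higher list scores in day 3 libraries 1 to 4 than in any sham library. Of 25 members 13 were higher and 0 lower at an unadjusted p under 0.05, 8 were retained, and the median log2 difference was 1.03. The higher ones numbered 9 without sham library 4 and day 3 library 1, and 11 to 15 with 1 library left out. Fkbp5, a co-chaperone of the receptor, stood at 793, 482, 473, 501 and 232 CPM at day 3 and at 126.1, 197, 209 and 66.4 CPM in sham. Klf9, a transcription factor, stood at 583, 514, 324, 352 and 229 CPM at day 3 and at 109, 187, 216 and 177 CPM in sham. In both genes day 3 library 5 lay just above the highest sham library and the other day 3 libraries well above it. Errfi1, a feedback inhibitor of the EGF receptor, stood at 492, 456, 322, 509 and 98.0 CPM at day 3 and at 128, 70.2, 144 and 97.7 CPM in sham, with library 5 inside the sham range. The metallothionein genes Mt1 and Mt2 had log2 differences of 2.76 and 2.97, the cell cycle inhibitor Cdkn1a 2.14 and Map3k6, a stress kinase, 1.64. Pck1, the glyceroneogenic enzyme that glucocorticoids lower in fat, stood at -0.72, and Bcl6 at -0.02. Pck1 enters the list score in the same way as the induced genes. The mean list score, in log2 units against the mean of the 9 libraries, was 0.85, 0.78, 0.61, 0.84 and -0.39 at day 3 and -0.72, -0.42, -0.33 and -1.21 in sham. Hsd11b1, which regenerates active glucocorticoid inside fat cells, had a log2 difference of 1.22, and Nr3c1, the receptor, -0.42.

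Promoters of list members were searched on both strands for the letters of a glucocorticoid response element, GNACA and TGTNC with 3 free bases between them. Of 25 members 22 had a promoter in the RefSeq table (GRCm38.p6), and 4 of these held it (18.2%), Sgk1, Mt1, Map3k6 and Fam107a. It was found in 0.436% of the 11710 tested genes with a promoter there. A match describes letters and not a bound site. The list was made of glucocorticoid receptor targets, so its share of these letters does not bear on day 3 against sham. The same holds for the letters searched in the promoters of other lists below. Promoters of Map3k6 and Mt1, whose log2 differences are above, are shown with the matched letters in capitals. The match begins 181 bases before the gene start in Map3k6 (chr4:133240568-133240867, plus strand) and 94 bases before it in Mt1 (chr8:94178839-94179138, plus strand).
Map3k6: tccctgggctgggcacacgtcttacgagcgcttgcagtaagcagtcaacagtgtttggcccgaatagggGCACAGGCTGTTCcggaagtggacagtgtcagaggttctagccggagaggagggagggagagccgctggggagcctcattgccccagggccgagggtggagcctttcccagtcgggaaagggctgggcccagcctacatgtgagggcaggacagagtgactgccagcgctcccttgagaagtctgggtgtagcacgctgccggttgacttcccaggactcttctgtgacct
Mt1: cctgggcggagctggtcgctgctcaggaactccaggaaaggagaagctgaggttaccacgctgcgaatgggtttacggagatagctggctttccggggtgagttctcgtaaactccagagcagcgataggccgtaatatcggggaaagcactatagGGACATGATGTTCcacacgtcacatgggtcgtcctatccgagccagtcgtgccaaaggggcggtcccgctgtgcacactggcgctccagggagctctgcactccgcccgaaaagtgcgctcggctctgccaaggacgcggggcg

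Genes of the circadian clock overlap with that list through Per1. Of 19 members 7 were higher and 0 lower at an unadjusted p under 0.05, with a median log2 difference of 0.64, and 3 were higher without sham library 4 and day 3 library 1. Per2, a repressor of the clock, stood at 64.0, 38.2, 39.5, 56.4 and 27.0 CPM at day 3 and at 26.4, 27.5, 18.4 and 14.3 CPM in sham, with day 3 library 5 inside the sham range. Per1 and the repressor Nfil3 had log2 differences of 1.07 and 1.86. Dbp, a target of the clock's activators, stood at 30.3, 7.10, 2.09, 26.3 and 14.7 CPM at day 3 and at 88.2, 13, 14.7 and 53.4 CPM in sham, which is -1.39 on the log2 scale. The letters CACGTG, the E-box that clock factors bind, were in 5 of the 16 list promoters in the table (31.3%) and in 11.3% of all 11710. The hour of sampling is not stated in the labels, and its part in these values was not tested.

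The integrated stress response raises amino acid transport and synthesis through the factor ATF4 when translation is curbed. Of 23 members 8 were higher and 0 lower at an unadjusted p under 0.05, 4 were retained, and the median log2 difference was 0.98. Ddit4, an inhibitor of mTORC1 that hypoxia and glucocorticoids also induce, stood at 263, 242, 172, 402 and 59.8 CPM at day 3 and at 43.5, 52.7, 96.7 and 20.4 CPM in sham. Slc7a11, the cystine importer, stood at 1.57, 24.6, 8.15, 7.04 and 0.597 CPM at day 3 and at 0.911, 1.40, 0 and 0.361 CPM in sham (log2 difference 3.62, SE 1.59). Libraries 1 to 4 of day 3 were above all sham libraries for both genes, and library 5 was inside the sham range. The amino acid transporter subunit Slc3a2 had a log2 difference of 0.98 and Ppp1r15a, which restarts translation, 1.82. Gdf15, a stress hormone that curbs appetite, stood at 2.43, 7.34, 10.5, 11.9 and 0.265 CPM at day 3 and at 0.684, 1.35, 0 and 0.774 CPM in sham. Fgf21, a hormone of fasting, stood at 5.43, 3.24, 0, 1.70 and 0.265 CPM at day 3 and had 0 counts in every sham library. With 162 counts at day 3 and 3 counts taken as the floor over the sham group, its mean was at least 58-fold higher at day 3, or at least 35.5-fold without day 3 library 1, and 1 of 5 day 3 libraries was also at 0. With that gene set to its bound the median of the list was the same. Members that went the other way included enzymes of serine and cysteine synthesis, Phgdh (-1.03), Psat1 (-0.37) and Cth (-0.45). The count of higher members was 5 without sham library 4, day 3 library 2 or day 3 library 3, and 4 without sham library 4 and day 3 library 1. The unfolded protein response list, a neighbouring branch, had 1 of 23 members higher and 0 lower.

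The letters TTGCATCA, as in amino acid response elements bound by ATF4 with a C/EBP partner, were in 5 of the 19 list promoters in the table (26.3%), those of Chac1, Slc7a11, Fgf21, Nupr1 and Vldlr. They were in 0.726% of all 11710. Promoters of Slc7a11 (chr3:50443564-50443863, minus strand) and Fgf21 (chr7:45615441-45615740, minus strand) are shown, with matches on either strand in capitals, because both belong to members whose values are given above.
Slc7a11: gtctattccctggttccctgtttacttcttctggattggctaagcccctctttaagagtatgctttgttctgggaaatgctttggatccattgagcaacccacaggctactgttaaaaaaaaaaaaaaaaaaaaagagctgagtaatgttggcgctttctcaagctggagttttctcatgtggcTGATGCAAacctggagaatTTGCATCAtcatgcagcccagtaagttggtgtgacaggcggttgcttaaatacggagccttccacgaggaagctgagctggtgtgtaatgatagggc
Fgf21: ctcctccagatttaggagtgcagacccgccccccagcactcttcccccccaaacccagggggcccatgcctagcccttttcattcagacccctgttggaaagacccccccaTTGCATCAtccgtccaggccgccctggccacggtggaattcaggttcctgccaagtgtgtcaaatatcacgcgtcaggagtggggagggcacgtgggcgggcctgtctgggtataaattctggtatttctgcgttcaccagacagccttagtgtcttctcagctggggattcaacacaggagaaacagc

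Immediate early genes respond within minutes to growth factors, stress and tissue handling. Of 21 members 6 were higher and 0 lower at an unadjusted p under 0.05, and the median log2 difference was 1.09. Fosl2, an AP-1 subunit, was the only one of the 21 without overlap, at 214, 285, 136, 191 and 116 CPM at day 3 and 113, 85.3, 81.1 and 66.3 CPM in sham. The growth regulator Myc, the RNA-decay factor Zfp36 and the small Maf protein Maff had log2 differences of 1.76, 1.46 and 2.63. Egr3, Nr4a2 and Fosb went the other way (-1.10, -0.56 and -0.21). Sham library 1 had a list score of 0.74, inside the range of the day 3 libraries, and day 3 library 5 one of -0.84, inside the sham range. The part that tissue handling had in these values was not tested. The count of higher members was 13 without sham library 1, 3 without sham library 4 and 1 without sham library 4 and day 3 library 1.

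Among matrix proteases and their inhibitors more genes stood higher than lower at day 3. The metalloproteases Adamts1 (2.64), Adamts4 (2.59) and Mmp2 (1.21) were higher at an unadjusted p under 0.05, while Mmp9 (-1.03) and Mmp23 (-0.56) were lower. In all, 6 of 23 matrix protease and inhibitor genes were higher and 2 lower. Without sham library 3, without sham library 4 and without sham library 4 and day 3 library 1 the higher ones numbered 3. Of 28 TGF-beta and activin genes 9 were higher and 1 lower, with a median of 0.40, and 0 of the 28 were higher without sham library 4 and day 3 library 1. With 1 library left out 2 to 11 of them were higher, fewest without sham library 1 and most without day 3 library 5. Acvr1b, an activin receptor, stood at 167, 180.1, 100.4, 83.8 and 47.6 CPM at day 3 and at 55.1, 69.8, 28.4 and 30.9 CPM in sham, with library 5 inside the sham range. Tgfbr3, a co-receptor also called betaglycan, was the only list member without overlap (log2 difference 0.63). The inhibitors Smad7 and Fstl3 had log2 differences of 1.08 and 1.33, and the ligand Bmp4 -0.91. Collagens and crosslinking enzymes numbered 3 of 30 higher and 0 lower.

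Some genes of low oxygen, metals and haem also belong to the lists above. Of 22 hypoxia genes 6 were higher and 1 lower. The higher ones numbered 3 without sham library 4, with or without day 3 library 1. Arnt, the partner of hypoxia-inducible factors, stood at 97.3, 109, 96.3, 103 and 70.3 CPM at day 3 and at 65.7, 69.3, 61.3 and 70.0 CPM in sham, with day 3 library 5 barely above the highest sham library. Lox, a collagen crosslinking enzyme, had a log2 difference of 2.24, and P4ha1, a collagen prolyl hydroxylase, went the other way (-0.83). Of 23 genes for metallothioneins, haem and iron 6 were higher and 0 lower. With 1 library left out 4 to 7 of them were higher, and 4 without sham library 4 and day 3 library 1. Hmox1, which breaks down haem, stood at 536, 868, 679, 656 and 35.7 CPM at day 3 and at 155, 138, 40.9 and 29.1 CPM in sham, so that library 5 resembled sham and the other day 3 libraries did not. The zinc importer Slc39a14 had a log2 difference of 2.19, and Mt3 had 5.77 with 3 of 4 sham libraries at 0. Alas2, the first enzyme of haem synthesis in red cell precursors, had 2.11.

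Transcripts of red blood cells stood higher in 4 of the 5 day 3 libraries. Hbb-bs, a beta globin, was at 861, 11362, 4134, 6625 and 3872 CPM at day 3 and at 840.4, 1874, 595 and 1242 CPM in sham. Day 3 library 1 lay inside the sham range, and libraries 2 to 5 were above it. Of 10 measured members 7 were higher and 0 lower at an unadjusted p under 0.05, with a median log2 difference of 1.89. With 1 library left out 5 to 8 members were higher, and 8 without sham library 4 and day 3 library 1. The summed level of the list was 1841, 27953, 10432, 17615 and 10720.0 CPM at day 3 and 2275, 4637, 1518 and 3049.7 CPM in sham. Hba-a1, Hba-a2 and Hbb-bt had log2 differences of 2.38, 2.34 and 2.04, and these near-identical pairs may exchange reads. The part of blood content in other genes that stood higher, such as Alas2, was not tested.

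Cell cycle genes stood lower at day 3, against a list score of 2.46 in sham library 1 and 0.98 in sham library 2, while sham libraries 3 and 4 had -0.89 and -0.28. Of 46 members 21 were lower and 0 higher at an unadjusted p under 0.05, 45 had negative differences, and the median was -1.81. Mki67 stood at 3.65, 8.38, 30.4, 5.40 and 9.74 CPM at day 3 and at 191, 58.7, 6.10 and 12.3 CPM in sham, so sham libraries 3 and 4 lay within the day 3 range. Prc1, which bundles spindle microtubules, stood at 1.43, 2.63, 3.44, 3.87 and 1.66 CPM at day 3 and at 87.1, 24.9, 1.68 and 7.22 CPM in sham (log2 difference -3.53, SE 1.00). Kif23, a kinesin of cytokinesis, and Tyms, which makes thymidylate, had log2 differences of -2.41 and -1.29. Without sham library 1 the median of the list was -0.65 and 3 members were lower. The count of lower members was 32 without sham library 3, 10 to 12 without day 3 library 1, 2, 4 or 5, and 1 with all 4 libraries that stood apart left out. For Pttg1, in contrast to Mki67 and Prc1, sham libraries 3 and 4 were as high as sham libraries 1 and 2 (28.5 to 37.5 CPM over all 4). Of 37 members in the promoter table, 27 held CCAAT on either strand (73.0%), against 42.7% of all 11710. Prc1, with CCAAT in capitals, is shown beside Pttg1 as a member that holds the letters (chr7:80294201-80294500, plus strand).
Prc1: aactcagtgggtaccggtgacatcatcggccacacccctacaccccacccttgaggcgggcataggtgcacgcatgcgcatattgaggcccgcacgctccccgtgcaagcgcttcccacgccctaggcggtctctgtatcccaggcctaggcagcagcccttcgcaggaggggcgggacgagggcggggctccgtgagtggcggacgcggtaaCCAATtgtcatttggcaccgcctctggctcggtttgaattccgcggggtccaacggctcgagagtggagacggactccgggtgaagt

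Transcripts of B cells and mast cells were counted lower at day 3, and their list scores were lower in day 3 libraries 1 to 4 than in library 5. Of 8 B and plasma cell genes 7 were lower, with a median of -3.26, and 2 were lower without sham library 1 or without sham library 4 and day 3 library 1. The light chain gene Igkc stood at 5.15, 7.95, 2.09, 2.23 and 19.6 CPM at day 3 and at 82.7, 1.19, 71.9 and 78.8 CPM in sham, with sham library 2 low as well. The B cell surface genes Ms4a1 and Cd22 had log2 differences of -4.09 and -2.08. Of 10 mast cell genes 5 were lower and 1 higher. The lower ones numbered 3 without sham library 1, sham library 3 or day 3 library 1, and 1 without sham library 4 and day 3 library 1. The mast cell protease gene Cpa3 stood at 4.00, 1.53, 4.19, 3.52 and 6.83 CPM at day 3 and at 13.9, 5.90, 25.1 and 18.0 CPM in sham, and day 3 library 5 was the only one above the lowest sham library. Cma1 and Tpsb2, other proteases of mast cells, had -2.32 and -1.93, while Kit, not restricted to mast cells, had a positive difference (1.47). In antigen presentation, Cd74, the invariant chain, stood at 68.0, 24.8, 31.2, 40.1 and 363 CPM at day 3 and at 284, 131, 399 and 527 CPM in sham. The sham range held day 3 library 5, and libraries 1 to 4 lay below it. Of 13 MHC class II and dendritic cell genes 3 were lower with all libraries, 8 without day 3 library 5 and 1 without sham library 4 and day 3 library 1. The count was 0 without sham library 1, sham library 4 or day 3 library 4, and 1 without sham library 3 or day 3 library 3. T and NK cell genes (1 of 11 lower), resident macrophage genes (0 of 18 in either direction) and neutrophil and monocyte genes (1 of 13 in each direction) had few members past that threshold. Of the 18 resident macrophage genes 2 were lower and 0 higher without overlap, against 2.14% and 1.58% over all genes.

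Interferon response genes included several without overlap. Over all genes 4.97% were lower at an unadjusted p under 0.05, and 2.14% were lower without overlap. Of 28 list members 6 were lower and 1 higher at that threshold, 4 of the 6 had groups that did not overlap, and the median was -0.66. The lower ones numbered 13 without sham library 3 and 12 without day 3 library 5. With 1 library left out they numbered 5 to 13, and without sham library 4 and day 3 library 1 they numbered 5. Oas3, an activator of antiviral RNase L, stood at 2.79, 2.02, 2.62, 1.76 and 2.92 CPM at day 3 and at 12.8, 7.92, 4.13 and 5.16 CPM in sham. Oas2, its relative, stood at 15.6, 3.24, 10.5, 6.28 and 12.3 CPM at day 3 and at 30.8, 31.5, 19.9 and 26.3 CPM in sham. Neither gene overlapped between groups, day 3 library 5 included (log2 differences -1.63 and -1.50). Irf1 and Irf9, transcription factors of the response, had -0.63 and -0.59. Bst2, the gene of tetherin, was the higher one, at 115, 109.5, 79.2, 95.9 and 66.4 CPM at day 3 and 72.2, 32.9, 25.0 and 34.1 CPM in sham, with day 3 library 5 under sham library 1.

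Mesothelial genes, of the cells that cover the fat pad, numbered 5 of 17 lower and 0 higher (median -0.63), or 2 lower without sham library 4 and day 3 library 1. Aldh1a2, which makes retinoic acid, stood at 29.9, 30.9, 32.1, 19.9 and 34.9 CPM at day 3 and at 72.6, 68.5, 32.6 and 52.1 CPM in sham, and Upk3b, a surface marker, had a log2 difference of -0.66 without overlap. Efemp1, Nkain4 and Gpm6a had -1.05, -0.92 and -0.74, while Msln, Krt18 and Slpi were positive (0.38, 0.40 and 0.28). The summed level of the list was 1105, 2162, 1809, 1545 and 1732 CPM at day 3 and 2239, 2252, 1854 and 2414 CPM in sham.

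Counts for genes of the adipocyte itself depended on day 3 library 5. With all libraries 1 of 25 mature adipocyte genes was higher and 1 lower, shares near those over all genes, and without library 5 the counts were 1 higher and 7 lower. Adipoq in day 3 libraries 1 to 4 was at most 1502 CPM, under all sham libraries, and library 5 held 4331 CPM. Cd36, which brings fatty acids into the cell, was at 3766, 4459.6, 4458, 4017 and 3232 CPM at day 3 and at 2048, 3316, 2729 and 2630.4 CPM in sham (log2 difference 0.57, SE 0.245). The retinol carrier Rbp4 and Prkaca, the catalytic subunit of protein kinase A, had -0.85 and -0.73, with library 5 at the sham level for both, and the growth factor Nrg4 had -0.65. Among genes of lipolysis the droplet proteins Plin2 and Hilpda had 1.56 and 2.85. Of 21 such genes 2 were higher and 1 lower, or 2 higher and 6 lower without library 5, and 0 in either direction without sham library 4 and day 3 library 1. The higher ones numbered 0 without sham library 3 or 4. Fatty acid and triglyceride synthesis had 0 of 23 in either direction, or 5 lower without library 5. For Scd1, a desaturase, the values were 22943, 6412, 7059, 9191 and 19079 CPM at day 3 and 2481, 6205, 7470.3 and 12345 CPM in sham, with overlapping groups. Nuclear genes of oxidative phosphorylation had 0 of 54 in either direction, with a median of -0.13, or 4 lower without library 5 and 3 lower without sham library 2.

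**Figure D4:**
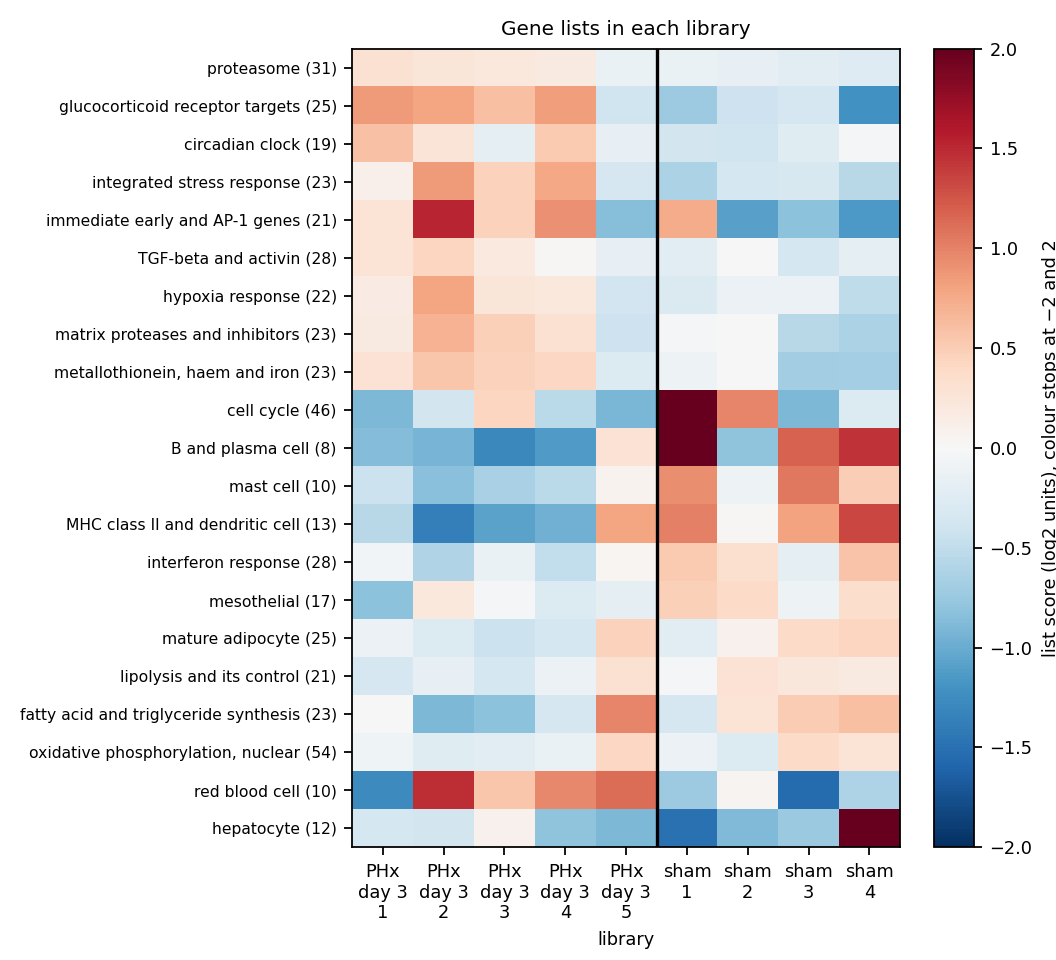
Mean score of each of 21 lists (rows, measured members in brackets) in each library (columns, PHx day 3 left of the line and sham right of it), in log2 units relative to the mean of the 9 libraries. Day 3 library 5 takes the colour of the sham side in the glucocorticoid and MHC class II rows, sham library 1 is high in the cell cycle row and sham library 4 in the hepatocyte row.

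Hepatocyte genes stood at -5.63 in the median (10 of 12 lower), and this rested on sham library 4. Alb was at 9.22, 11.7, 10.2, 1.53 and 5.77 CPM at day 3 and at 1.78, 2.80, 5.99 and 2315 CPM in sham. Without sham library 4 and day 3 library 1 the median was 1.03, with 2 members higher and 0 lower. Of the other 35 lists, the YAP and TEAD target list had 6 of 26 members higher and 0 lower, or 3 higher without sham library 1 or sham library 4 and 2 without sham library 4 and day 3 library 1. The fatty acid oxidation and endothelial lists had 3 of 24 higher each, and the list of ubiquitin ligases of atrophy 3 of 18, or 0 of them without sham library 1. Mitochondrially encoded genes (0 of 13) and branched-chain amino acid breakdown (0 of 24) had 0 in either direction, and 2 of 57 ribosomal protein genes were higher. Ehhadh, a peroxisomal enzyme of fatty acid oxidation, had a log2 difference of 2.26.

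The authors' deposited table calls 124 genes for day 3 against sham at a false discovery rate under 0.05, 66 higher and 58 lower. Of these, 99 had per-sample values that could be tested here, 64 higher and 35 lower, and their direction was the same in edgeR for 99. Most of the calls that could not be checked were lower ones. Per-sample values are absent for 23 of the 124, and for 22 of the 49 called at a rate under 0.01. For 92 of the 99 the unadjusted p stayed under 0.05 in all 11 fits (61 higher and 31 lower), and for 63 the groups did not overlap. Over all genes 1.66% were retained as higher and 1.12% as lower, and 3.72% had no overlap. DESeq2, run here on the same counts, called 122 genes, 96 of them among the 99. The 99 had been called from these same libraries, so the shared direction and these counts are no separate check of the calls. In the authors' deposited table Pttg1 had a log2 ratio of -3.24 (FDR 1.31e-11) and Kcne4 one of 3.28 (FDR 0.000875). For Kcne4 the adjusted p was 0.403 in edgeR run here, so the call differed by tool.

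The count of genes at an unadjusted p under 0.05 moved with the libraries included. Without day 3 library 5 it was 1433 higher (8.48%) and 1702 lower (10.1%), which is 18.5% of the genes tested, against 1003 and 846 with all libraries. Without day 3 library 2 it was 612 higher and 576 lower, and without sham library 4 and day 3 library 1 it was 448 higher (2.68%) and 432 lower (2.58%), or 5.26% in both directions. With all 4 libraries that stood apart left out it was 573 higher (3.38%) and 784 lower (4.62%). In each of these fits 0 genes passed the adjusted threshold in edgeR. With all 4 left out the median log2 difference was 0.39 for the proteasome, 0.95 for glucocorticoid targets, 0.66 for the clock and 0.90 for the integrated stress response. It was 2.13 for red blood cells, -0.57 for the cell cycle, -3.26 for B and plasma cells, -2.32 for mast cells and -0.60 for interferon response genes. The mature adipocyte list had -0.72 and the mesothelial list -0.22.

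**Figure D5:**
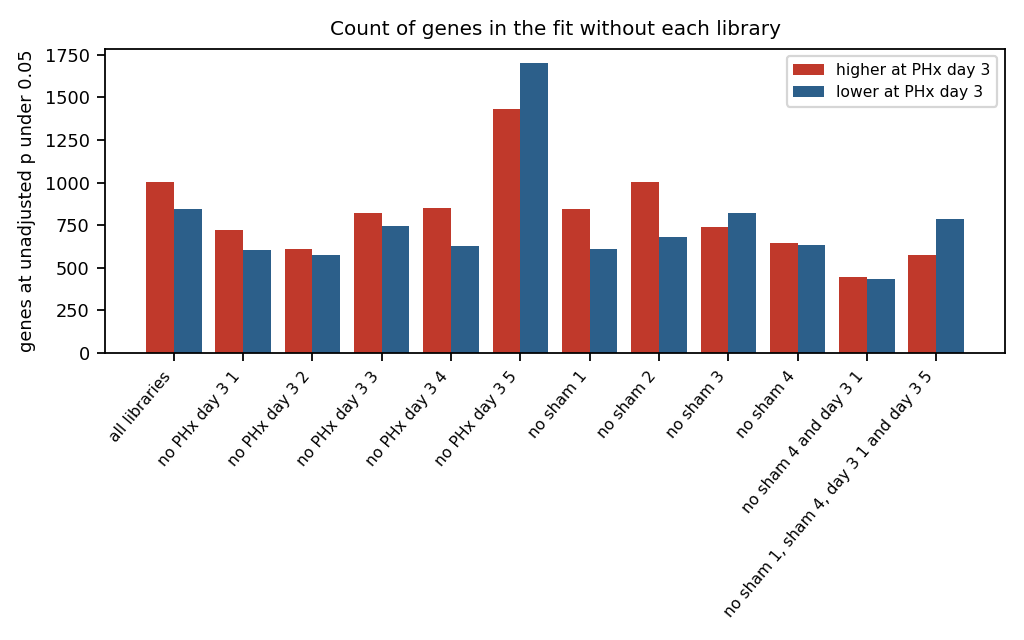
Number of genes at an unadjusted edgeR p under 0.05 (y axis), red bars higher and blue bars lower at PHx day 3, with all libraries at the left, then without each library and without the combinations named. The bars without day 3 library 5 are the tallest (1433 and 1702), and those without sham library 4 and day 3 library 1 the lowest (448 and 432).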

How the data were processed

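Bulk RNA-seq of epididymal fat was used from 12 libraries, 5 from PHx day 3, 4 from sham and 3 from PHx day 7. Reads were aligned to mm39 with STAR, quantified in Partek and compared with DESeq2, per the submitters' processing notes, which give no versions here. The deposited per-sample values are estimated counts per gene, 28.6 to 39.7% of them not whole, and they were rounded before testing. The same table holds the authors' normalized counts as a signal, their summaries per gene, and the authors' log2 ratios, p-values and FDR. It pairs the per-sample values with gene names in another row order. Each of 18086 lines of values was therefore set beside its gene by the deposited mean, maximum and geometric mean of the normalized counts, with a relative tolerance of 3e-05 for mean and maximum: 18070 matched 1 gene, 16 were settled by neighbouring lines and 0 were unmatched. Of 22151 genes 4065 had no per-sample values, with 0.0784% of the normalized counts.

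Genes with enough counts (edgeR filterByExpr, minimum count 10) were fitted by edgeR quasi-likelihood with TMM scaling over all 3 groups, without covariates, and adjusted by Benjamini and Hochberg. The estimate of spread comes from 12 animals, each sequenced once per the labels. R 4.3.3, edgeR 4.0.16, limma 3.58.1, statmod 1.5.0 and DESeq2 1.42.0 were used. The edgeR and DESeq2 fits were tested on simulated counts, and the other steps were not. List scores are means over members of log2(CPM + 1), centred over the 9 libraries. Alternatives were DESeq2, voom, RLE factors, no filter, 9 libraries alone, a replicate block, each library left out, sham 4 with day 3 1 left out and, added after seeing the data, all 4 libraries that stood apart left out. Totals of 13128832 to 23474247 counts per library limit precision for low genes.

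Members and lists were chosen with earlier results of these data known. Genes were named as the 12 per direction with the smallest p among symbols without overlap and at a mean of at least 1 CPM (predicted gene models, named Gm with a number, Rik or by identifier alone, were not eligible), the 6 per direction with the largest difference at a mean of at least 5 CPM, the 8 per direction with the smallest largest p over the 11 fits, up to 4 per described list with the smallest p, list members that went the other way, genes past the adjusted threshold and markers of libraries. Named in addition after their values were seen were Pisd, Ddi2, Ndufs5-ps, Mt2, Cdkn1a, Map3k6, Hsd11b1, Nr3c1, Slc7a11, Gdf15, Adamts4, Mmp23, Tgfbr3, Slc39a14, Irf9, Upk3b, Ehhadh, Gm47283 and Gm36161. A further gene, which the rule on list members also gives, is not reported here. Promoters of 250 bases before and 50 after the gene start are from RefSeq (GRCm38.p6).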

Additional observations from a re-analysis of the deposited data

Results flagged for a closer look

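In 274 sets of values, each a named gene's level or a list score within 1 group, the library farthest from the rest was compared with the range of its group. In 34 sets it lay farther out than Dixon's 95% limit, where chance alone gives about 1 in 20 sets. Several genes were named because a library stood apart, and some were at 0 in all other libraries of the group, so the count was not set against that share. Day 3 library 5 was that library in 14 sets, sham library 4 in 5, sham library 2 in 4, day 3 libraries 1 and 2 and sham library 1 in 3 each, and day 3 library 3 and sham library 3 in 1 each.

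Day 3 library 5 stood apart upward from the other day 3 libraries for Adipoq (4331 CPM), Cd74 (363 CPM), Efemp1 (354 CPM), Rbp4 (308 CPM), Prkaca (153 CPM), Hsph1 (41.4 CPM), Cma1 (11.6 CPM) and Ms4a1 (0.729 CPM). The same held for Ndufb10 (136 CPM) and Atp5k (42.3 CPM), subunits of respiratory complexes. It was far below them for Psma6 (127 CPM). Its list score was lowest for glucocorticoid targets (-0.39) and highest for B and plasma cells (0.28) and for oxidative phosphorylation (0.41).

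Day 3 library 1 was the farthest for Xist (359 CPM), Ddx3y (0.643 CPM) and Fstl3 (61.8 CPM). Day 3 library 2 was so for Kcne4 (51.4 CPM), Pisd-ps1 (4.89 CPM) and Apoh (0.428 CPM), and day 3 library 3 for Mki67 (30.4 CPM). Sham library 1 was far above the other sham libraries for Pisd-ps1 (35.4 CPM), Arhgap4 (26.4 CPM) and Cebpb (163 CPM). Sham library 2 was far from them for Epn2 (48.8 CPM), Bean1 (0.725 CPM), Fstl3 (19.1 CPM) and, downward, Igkc (1.19 CPM), and sham library 3 for Mt3 (0.419 CPM). Sham library 4 was far above the other sham libraries for the hepatocyte genes Alb (2315 CPM), Ahsg (247 CPM), Mup3 (241 CPM) and Apoh (46.5 CPM) and for the hepatocyte list score (5.45).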

How the results depend on the processing

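Over 17 alternatives the log2 differences of 116 named genes changed sign for 4 genes, and the medians of 21 lists for 2 lists. Many of these genes were named for a small p, for groups without overlap or for holding in the fits with libraries left out. A stable sign was therefore partly fixed by the choice of genes. In edgeR 1 gene passed the adjusted threshold, as it did with RLE factors, without the filter and with the 9 libraries alone. DESeq2 passed 122 genes and voom 0. The count was also 0 in every fit that left out 1 library (lowest and highest 0), without sham library 4 and day 3 library 1 (0), with all 4 libraries that stood apart left out (0), a setting chosen after seeing the data, and with the replicate number as a block (0, with 2617 genes at an unadjusted p under 0.05). The labels state no pairing of the animals by number. Correlations of same-numbered libraries were -0.217 to 0.107, and 0 of 4 correlated best with its own number. With so few libraries these values do not settle whether animals were paired. Against 1849 genes at an unadjusted p under 0.05 there were 3686 with voom, 880.0 without sham library 4 and day 3 library 1, and 1188 to 3135 with 1 library left out. Against 632 genes without overlap there were 1135 without that pair of libraries and 724 to 2716 with 1 library left out, where fewer libraries have to separate. The authors' deposited table calls 124 genes at an FDR of 0.05, 49 at 0.01 and 235 at 0.1.

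Signs changed for Ddx3y, at -0.21 to 0.25 with 1 library left out, positive without day 3 library 1, 0.32 without that library and sham library 4 and 0.16 with all 4 left out. For Alb the range was -6.65 to 1.11, positive without sham library 4, and the value 1.05 without the pair, 0.39 with the block and 0.80 with all 4 left out. Mup3 gave -6.83 to 1.17, then 0.66, 0.39 and 6.30 in the same settings, and the median log2 difference of hepatocyte genes -6.22 to 1.11, then 1.03, 0.18 and 0.81. Ahsg had 0.056 without the pair. The median log2 difference of lipolysis and its control was -0.16 to 0.13, positive without sham library 3, day 3 library 2 or day 3 library 3. The median log2 difference of cell cycle genes was -0.65 without sham library 1. The cause of these shifts was not tested beyond the libraries named. With 4 and 5 animals and 1 sequencing run each, differences under about the spread between animals could not be told apart at this depth.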

Other observations

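Heat shock chaperones, which refold damaged proteins, were listed with the heat shock factor Hsf1 after their values had been seen. Their counts are therefore partly fixed by that choice. Over all genes 5.9% stood higher and 4.97% lower at an unadjusted p under 0.05, and 2.14% were lower without overlap. Of the 23 genes listed 2 stood higher and 8 lower at that threshold, 4 of the lower ones without overlap. Differences were negative for 15 and positive for 8, among them Hspb1 (1.05) and Cryab (0.69). The median log2 difference of the list was -0.35 (-0.46 without day 3 library 5 and -0.39 without sham library 4 and day 3 library 1). The lower ones included Chordc1, a partner of HSP90, at 19.9, 27.8, 30.0, 27.1 and 50.5 CPM at day 3 and at 53.3, 67.2, 69.7 and 62.2 CPM in sham (log2 difference -1.02), and Fkbp4, an immunophilin of steroid receptor complexes, with -0.94. Dnajb1 (1.32) and Bag3 (0.95), which are also targets of heat shock factor, went the other way, with day 3 library 5 inside the sham range for both. Without sham library 4 and day 3 library 1 their unadjusted edgeR p was 0.0939 and 0.0673.

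The day 7 libraries were set against the 632 genes without overlap, after the values had been seen. On the log2 scale each day 7 library was placed on the day 3 side or the sham side of the midpoint between the groups. For 174 genes all 3 lay on the day 3 side, and 10 of these were among the 40 genes with the widest gaps between day 3 and sham. For 44 genes all 3 lay on the sham side (4 of the 40), and for 129 only library 1 lay on the day 3 side (6 of the 40). The patterns with a single library on the sham side numbered 98 for library 3, 101 for library 2 and 25 for library 1, with 3 of the 40 in each, and 23 genes had only library 2 on the day 3 side (1 of the 40). For 38 genes libraries 1 and 2 of day 7 lay on the sham side and library 3 on the day 3 side (10 of the 40). They included Pttg1, which had the widest gap, with B3gnt3, Ndufs5, Ndufs5-ps, Lrmda, Skint3 and Sh2d4a. Ndufs5 was at 33.0, 55.2 and 14.6 CPM at day 7, and Ndufs5-ps at 1.58, 0.992 and 13.7 CPM. Litter and source of the animals are not given in the labels and were not tested.

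On chromosome 8, in a span of the mm39 build that runs from Zfp868 past B3gnt3, 8 of 87 genes tested had groups that did not overlap, 4 in each direction, and 7 in each direction were at an unadjusted p under 0.05. Over all genes the share without overlap was 3.72%, and 5.9% were higher and 4.97% lower at that threshold. By whole chromosome the share without overlap was 5.06% on chromosome 8 and 5.33% on chromosome 7. The span was chosen after these genes had been seen. The genes without overlap were Pgpep1, B3gnt3, Tmem221, Zfp868 (1.15), Zfp964 (-1.11), Ankle1 (-3.46), Nxnl1 (1.30) and a Rik clone (2.60). For Nxnl1 the unadjusted edgeR p was 0.135. The span also holds Bst2 and Mrpl34 (-0.72), whose groups overlapped.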
